A study of Mus musculus with 24 samples.

Results

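The genes described here are *Nfe2l2*, which encodes the transcription factor NRF2, *Keap1*, which encodes its repressor, and 8 core NRF2 target genes (*Nqo1*, *Hmox1*, *Txnrd1*, *Srxn1*, *Gclm*, *Gclc*, *Slc7a11* and *Osgin1*). They were taken by symbol from a count table of 55291 mouse gene symbols, and all 10 were found. The rule uses no measured value, although the members were chosen with earlier results of these data known. All 10 passed the filter on low counts in every comparison. The series sequenced RNA from mouse myoblasts of 4 lines, the scrambled shRNA control (scr) and cells with knockdown (KD) of *Baf180*, *Baf250a* or *Brd9*. These are subunits of the SWI/SNF chromatin remodelling complexes PBAF, BAF and non-canonical BAF. Every line was cultured for 48 h either without added metal (NT), in CuSO4 at 100 µM (Cu) or in ZnSO4 at 50 µM (Zn), which gives 12 conditions of 2 replicates, or 24 libraries. The sample labels name primary mouse myoblasts and a KD by Lipofectamine, whereas the methods of the study describe C2C12 cells, an immortalized mouse myoblast line, carrying lentiviral shRNA. Every KD line is therefore compared with 1 control line that carries an shRNA as well.

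NRF2 is a basic leucine zipper factor that pairs with small MAF proteins on antioxidant response elements (ARE) near its target genes. KEAP1, a sensor protein rich in reactive cysteines, holds NRF2 for ubiquitination by a CUL3 ligase, and oxidants, electrophiles and some metals modify these cysteines so that newly made NRF2 accumulates. Control therefore lies largely in the stability of the NRF2 protein, which RNA-seq does not measure. The targets supply reducing power: GCLC and GCLM form the rate-limiting enzyme of glutathione synthesis, SLC7A11 is the cystine importer subunit that feeds it, TXNRD1 reduces thioredoxin, and SRXN1 repairs overoxidized peroxiredoxins. NQO1 reduces quinones, HMOX1 degrades heme, and OSGIN1 is a stress-induced regulator of growth and cell death.

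In the GENCODE M21 annotation of GRCm38 the genes lie at chr2:75675513-75704641 (*Nfe2l2*, minus strand), chr9:21229730-21239361 (*Keap1*, minus strand), chr8:107388225-107403206 (*Nqo1*, minus strand), chr8:75093621-75100589 (*Hmox1*, plus strand), chr10:82833951-82897712 (*Txnrd1*, plus strand), chr2:152105516-152111376 (*Srxn1*, plus strand), chr3:122245557-122270732 (*Gclm*, plus strand), chr9:77754535-77794485 (*Gclc*, plus strand), chr3:49892526-50443614 (*Slc7a11*, minus strand) and chr8:119434124-119446256 (*Osgin1*, plus strand).

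Sequences around ARE matches are shown because the target genes are grouped by this element. RefSeq promoter windows of GRCm38.p6, each from 250 bases before to 50 bases after a transcription start, were at hand for 8 of the 10 genes and not for *Hmox1* and *Gclc*. The ARE core was searched on both strands as TGACNNNGC and, in a variant form, as TGAGNNNGC. At least 1 match was found for 6 of the 8 genes, and none for *Keap1* or *Nqo1* within this window. Of 32851 windows of all genes, 27.8% held either form, so that a match is a description and not a binding site. The matches that lie upstream of the start are printed 5′ to 3′ on the strand of the gene, with 10 bases on each side and the match in capitals. A match on the opposite strand is printed as its reverse complement. The position names the first base of the match counted back from the start, and the coordinates are those of the match.
*Nfe2l2* at -240 (chr2:75704895-75704903, minus strand): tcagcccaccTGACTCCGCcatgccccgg
*Txnrd1* at -92 (chr10:82859114-82859122, plus strand, 1 of 3 annotated starts): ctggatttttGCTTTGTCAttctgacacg
*Srxn1* at -158 (chr2:152105366-152105374, plus strand): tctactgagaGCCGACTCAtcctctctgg
*Srxn1* at -45 (chr2:152105479-152105487, plus strand): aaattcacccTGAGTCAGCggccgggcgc
*Gclm* at -134 (chr3:122245423-122245431, plus strand): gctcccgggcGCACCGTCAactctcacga
*Slc7a11* at -97 (chr3:50443702-50443710, minus strand): taatgttggcGCTTTCTCAagctggagtt
*Osgin1* at -99 (chr8:119437048-119437056, plus strand): aggggcccctGCTGACTCAcgcttatgaa
The *Srxn1* window held 3 ARE matches, the most of the 8 genes, and the third lies after the start. The metal response element, the core bound by the zinc sensor MTF1, was searched on both strands as TGCACNC and TGCGCNC. It matched 3 times in the *Gclm* window, once overlapping the ARE match, and 1 time in that of *Srxn1*, against 25.7% of all windows with a match. No metal response element was found in the windows of the other 6 genes.

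Total counts per library ran from 495778 to 75179394, with a median of 22158430. The lowest belongs to replicate 2 of *Baf250a* KD cells with Zn, and the next lowest was 12719173. In that shallow library the 10 genes had between 5 counts (*Slc7a11*) and 134 counts (*Txnrd1*). Leaving it out lost no call among the 120 values of the 10 genes in the 12 comparisons refitted without it, and 4 calls were gained. The gene targeted in each line was lower than in scr without metal, by a log2 fold change of -0.76 ± 0.16 (SE) for *Pbrm1* (BAF180), -1.53 ± 0.10 for *Arid1a* (BAF250A) and -0.76 ± 0.13 for *Brd9*. All 6 myoblast markers had a mean of at least 1 CPM (counts scaled to library size) over the 24 libraries, although *Pax7* and *Msc* were at 0 in some. Their summed level was 2262 to 3140 CPM in scr cells, 1495 to 1695 in *Baf180* KD, 1087 to 1257 in *Baf250a* KD and 1541 to 1840 in *Brd9* KD cells. *Des* was the largest part of these sums, with 777 to 2467 CPM over the 24 libraries. *Cdh15* reached 433 and the other myoblast markers at most 199, so that the sums do not show how each marker moved. The summed fibroblast markers, of which 2 of 5 reached 1 CPM, were 5.18 to 8.01 CPM in scr, 23.8 to 37.7 in *Baf180* KD, 66.3 to 92.7 in *Baf250a* KD and 10.4 to 14.5 in *Brd9* KD cells. The 6 markers of differentiated muscle summed to 71.5 to 103 CPM in scr, 117 to 169 in *Baf180* KD, 58.7 to 73.4 in *Baf250a* KD and 31.99 to 37.8 in *Brd9* KD cells. Macrophage and endothelial markers summed to at most 6.14 CPM, with *Tyrobp* at 0 in all libraries. In such bulk samples fewer cells of a type and less RNA per cell cannot be told apart. The metallothionein genes *Mt1* and *Mt2*, which respond to Zn, rose in the mean Zn response by 1.55 ± 0.088 and 2.07 ± 0.063 on the log2 scale and in the mean Cu response by 0.34 ± 0.086 and 0.40 ± 0.061. *Slc30a1*, the third gene used to check metal exposure, rose by 1.03 ± 0.072 in the mean Zn response. Its mean Cu response of 0.11 ± 0.071 was not called (adjusted p = 0.38).

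Levels are given in CPM scaled by the TMM method of edgeR, in the order replicate 1 and replicate 2. Levels per kilobase were divided by the length of the longest annotated transcript of each gene. On this scale *Txnrd1* was the most abundant of the 10 genes in untreated scr cells, with a mean of 163 CPM per kilobase. It was followed by *Srxn1* with 65.0, *Nfe2l2* with 43.5 and *Hmox1* with 36.1. *Slc7a11*, whose longest transcript has 9223 bases, was the lowest with 2.23 CPM per kilobase. Without division by length *Nqo1* was the lowest, with a mean of 12.7 CPM, and *Slc7a11* had 20.5. In untreated *Baf250a* KD cells the order per kilobase changed, since *Hmox1* was first with 94.6 CPM per kilobase, *Txnrd1* had 74.1 and *Slc7a11* had 0.705. Without division by length *Txnrd1* stayed above *Hmox1* there, with means of 268 and 148 CPM.

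**Figure D1:**
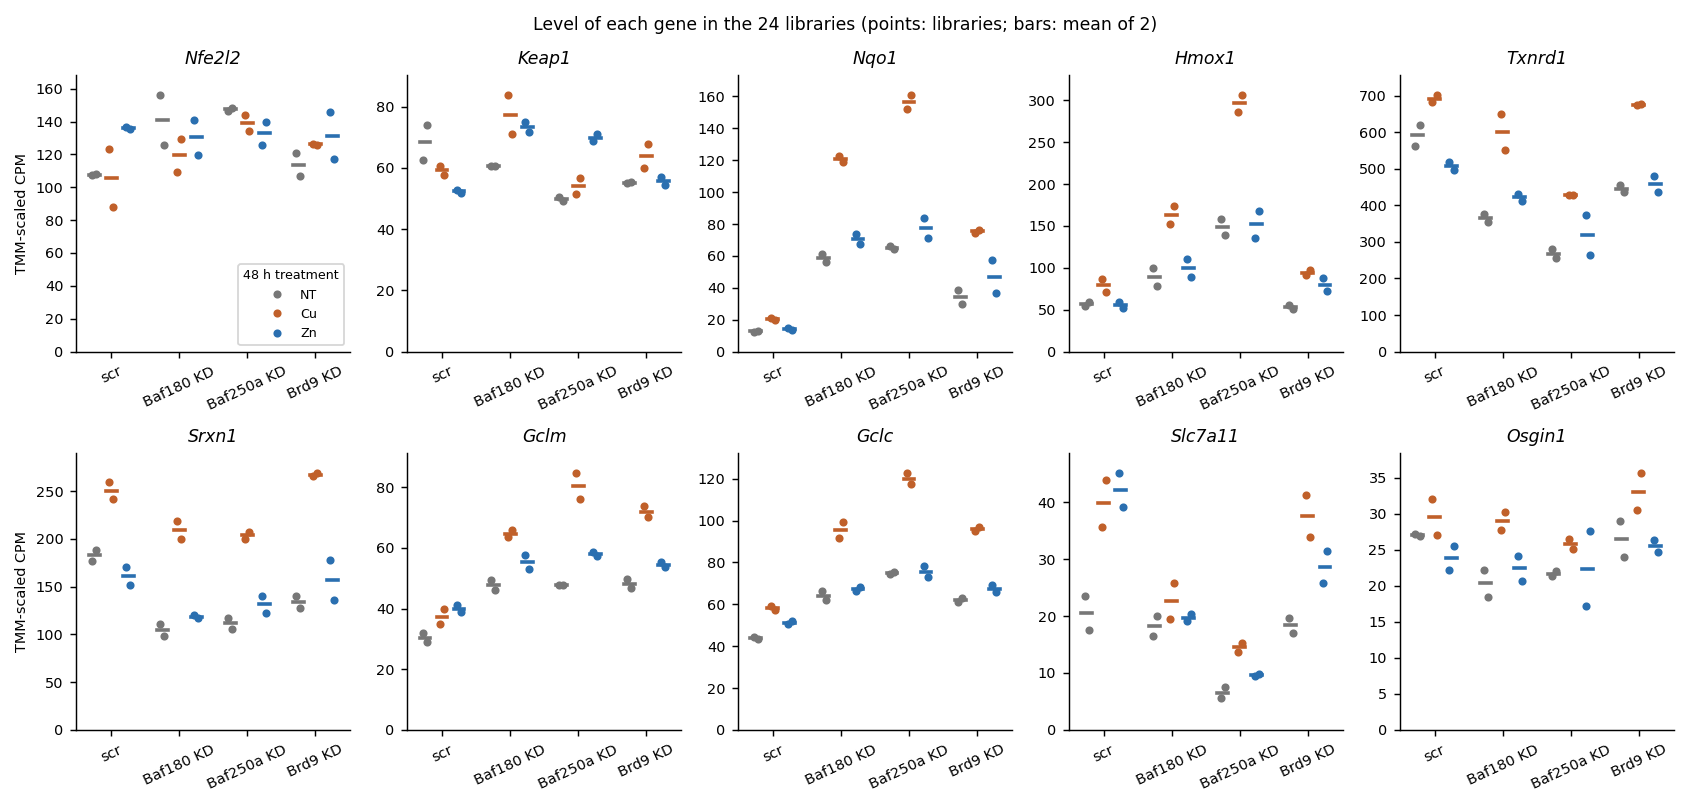
TMM-scaled CPM (y axis, from 0) of the 10 genes in the 24 libraries, grouped by line on the x axis and coloured by treatment, with points for the 2 libraries and a bar for their mean. *Nqo1* ran from 12.4 CPM in an untreated scr library to 161 CPM in a *Baf250a* KD library with Cu, and the Cu libraries are the highest of a line for *Nqo1*, *Hmox1*, *Txnrd1*, *Srxn1* and *Gclc* in all 4 lines.

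Copper raised all 8 targets when the response was averaged over the 4 lines, whereas *Nfe2l2* and *Keap1* did not pass the test. The mean log2 fold change against NT was largest for *Nqo1* (1.02 ± 0.075, SE, adjusted p = 2.82e-08), a 2.02-fold rise, and smallest for *Osgin1* (0.29 ± 0.067, adjusted p = 0.0106). Between these stood *Slc7a11* (0.86 ± 0.088), *Srxn1* (0.82 ± 0.057), *Hmox1* (0.78 ± 0.07), *Gclc* (0.56 ± 0.039), *Txnrd1* (0.54 ± 0.056) and *Gclm* (0.50 ± 0.045). *Nfe2l2* changed by -0.062 ± 0.071 (adjusted p = 0.635) and *Keap1* by 0.11 ± 0.05 (adjusted p = 0.218). Over all genes tested in this fit of 24 libraries, 7.86% were called and 4.67% were called higher. The median of the 8 targets was 0.67 on the log2 scale, against 0.011 for all genes tested. The 8 calls were made in each of the 24 fits without 1 library.

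**Figure D2:**
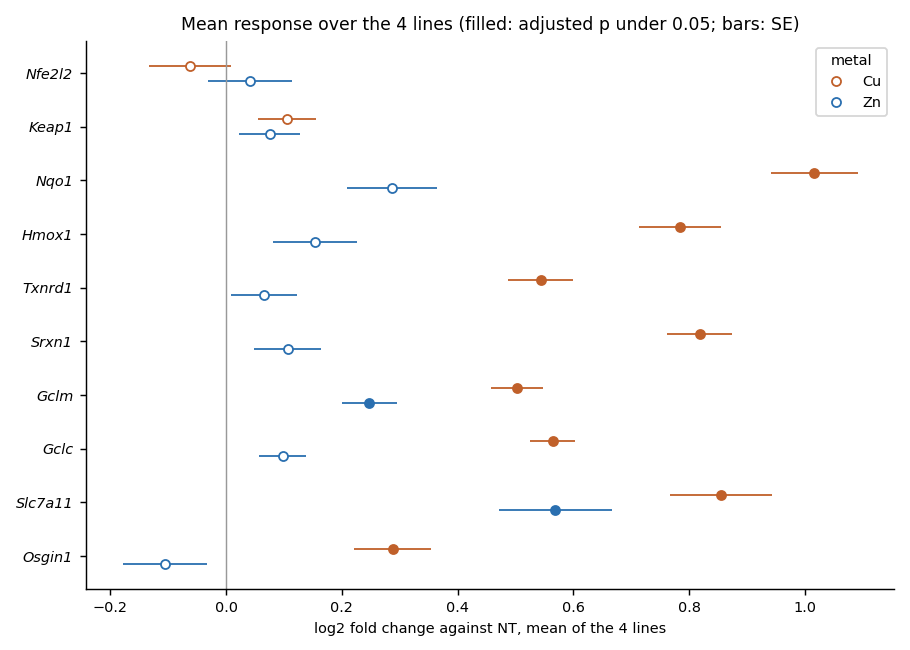
Mean log2 fold change against NT over the 4 lines (x axis) for each gene (y axis), with Cu and Zn in different colours, SE as bars and filled points for an adjusted p under 0.05. With Cu the 8 targets lie between 0.29 and 1.02, and with Zn the highest values are those of *Slc7a11* (0.57) and *Nqo1* (0.29, not called).

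*Nqo1* had the largest ratio of the highest to the lowest library among the 10 genes. Its CPM was 12.4 and 12.96 in scr NT and 20.9 and 19.5 in scr Cu libraries, and 61.1 and 56.5 in *Baf180* KD NT against 122 and 119 with Cu. *Baf250a* KD libraries had 66.2 and 64.3 without and 152 and 161 CPM with Cu, and *Brd9* KD libraries 38.4 and 29.5 and 74.4 and 76.3. Both Cu libraries lay above both NT libraries in all 4 lines. In scr this order held for 18.3% of all genes tested, and the shares in the KD lines are not given here. The orders of libraries given below are likewise descriptions. The log2 fold change was 0.66 ± 0.11 in scr, 1.00 ± 0.084 in *Baf180* KD, 1.27 ± 0.086 in *Baf250a* KD and 1.06 ± 0.17 in *Brd9* KD cells, and the test was passed in *Baf180* KD and *Baf250a* KD cells. In *Brd9* KD cells the adjusted p was 0.0524, and 0.0173 with an offset for the GC content and length of transcripts.

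*Hmox1*, the inducible heme oxygenase, followed the same order of treatments. It had 54.6 and 58.6 CPM in scr NT and 86.7 and 71.4 in scr Cu libraries, and 99.5 and 78.1 against 153 and 174 in *Baf180* KD. In *Baf250a* KD the values were 158 and 139 and 286 and 306 CPM, and in *Brd9* KD 55.4 and 50.3 and 90.9 and 97.3. Both Cu libraries were above both NT libraries in every line, an order that 18.3% of all genes had in scr. The rise passed the test in *Baf180* KD (0.84 ± 0.12), *Baf250a* KD (1.00 ± 0.098) and *Brd9* KD cells (0.75 ± 0.096), while the scr value was 0.47 ± 0.12 (adjusted p = 0.447).

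The thioredoxin arm moved together with Cu. *Txnrd1* had 563 and 620.2 CPM in scr NT and 682 and 702 in scr Cu, 375 and 355 against 651 and 551 in *Baf180* KD, 280.1 and 256 against 428 and 429 in *Baf250a* KD, and 456 and 436 against 674 and 678 in *Brd9* KD. *Srxn1* had 177 and 189 and 259 and 242 CPM in the same scr groups, 111 and 98.2 and 218 and 199.6 in *Baf180* KD, 118 and 105 and 200.3 and 207 in *Baf250a* KD, and 140.3 and 128 and 266 and 269 in *Brd9* KD. For both genes the Cu libraries of every line were above its NT libraries, an order that 18.3% of all genes had in scr. The rise of *Srxn1* was 0.96 ± 0.085, 0.88 ± 0.089 and 0.91 ± 0.10 in the *Baf180*, *Baf250a* and *Brd9* KD lines, and that of *Txnrd1* was 0.68 ± 0.096, 0.68 ± 0.11 and 0.52 ± 0.067, all past the test. In scr cells the values were 0.45 ± 0.091 for *Srxn1* and 0.22 ± 0.086 for *Txnrd1* (adjusted p = 0.394 and 0.479).

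In the glutathione arm, the Cu libraries of *Gclm* and *Gclc* lay above the NT libraries in every line. In scr 18.3% of all genes had this order. *Gclc*, the catalytic subunit, had 44.2 and 43.2 CPM in scr NT against 59.00 and 57.5 in scr Cu, and 66.2 and 61.9 against 91.8 and 99.3 in *Baf180* KD. It had 74.3 and 75.3 against 123 and 118 in *Baf250a* KD and 61.1 and 63.1 against 95.3 and 96.8 in *Brd9* KD. The modifier subunit *Gclm* had 31.9 and 28.9 against 34.8 and 39.8 CPM in scr, 49.5 and 46.2 against 63.5 and 65.8 in *Baf180* KD, 47.9 and 47.9 against 84.5 and 75.99 in *Baf250a* KD and 49.6 and 46.8 against 73.6 and 70.2 in *Brd9* KD. The cystine importer *Slc7a11* had 23.5 and 17.6 CPM in scr NT and 35.7 and 43.9 in scr Cu, and in *Baf250a* KD 5.51 and 7.49 and 13.7 and 15.3. In *Brd9* KD it had 19.6 and 17.03 and 41.3 and 33.8, and in *Baf180* KD 16.4 and 20.02 and 19.5 and 25.7 CPM. *Baf180* KD was the line in which the NT and Cu libraries of *Slc7a11* overlapped. Its log2 fold change was 0.27 ± 0.15 there (adjusted p = 0.259), against 1.17 ± 0.16 in *Baf250a* KD, 0.96 ± 0.18 in scr (adjusted p = 0.301) and 0.95 ± 0.15 in *Brd9* KD cells. The difference between the *Baf180* KD and scr responses of *Slc7a11* was -0.63 ± 0.24 and missed the threshold (adjusted p = 0.0836). The response of *Baf180* KD cells with the offset for GC content and length was 0.76 and was called (adjusted p = 0.00662), and the difference from scr was 0.056 (adjusted p = 0.934).

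*Osgin1* and the 2 regulators changed least. *Osgin1* had 27.2 and 26.9 CPM in scr NT and 31.98 and 27.02 in scr Cu, with overlap, and 22.1 and 18.5 against 27.7 and 30.2 in *Baf180* KD, the line in which its rise passed the test (0.48 ± 0.12). It had 21.3 and 22.04 against 26.4 and 25.05 in *Baf250a* KD and 28.9 and 23.98 against 30.5 and 35.6 CPM in *Brd9* KD. The call in *Baf180* KD was lost with the offset (0.32, adjusted p = 0.131) and without either Cu replicate or replicate 2 of NT. *Nfe2l2* had 107 and 108 against 123 and 87.95 CPM in scr, 156 and 126 against 109.6 and 129 in *Baf180* KD, 147 and 148 against 144 and 134 in *Baf250a* KD and 121 and 107 against 126 and 126 in *Brd9* KD. The Cu libraries of *Nfe2l2* were thus spread on both sides of the NT libraries in scr, and its log2 fold changes with Cu ran from -0.27 in *Baf180* KD to 0.067 in *Brd9* KD cells. *Keap1* had 62.5 and 74.1 CPM in scr NT and 60.7 and 57.8 in scr Cu, 60.5 and 60.7 against 83.8 and 70.96 in *Baf180* KD, 50.6 and 49.1 against 51.4 and 56.5 in *Baf250a* KD and 54.9 and 55.4 against 60.03 and 67.7 in *Brd9* KD. Its Cu libraries lay below the NT libraries in scr and above them in the 3 KD lines, and none of these 4 values passed the test.

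Counted by line, 7 of the 10 genes were called higher with Cu in *Baf180* KD, where 5.46% of all genes tested were called higher, and 7 in *Baf250a* KD, where 0.626% were. In *Brd9* KD 6 were called higher, against 0.174% of all genes. No member was called in scr, where edgeR called 0.0333% of all genes. There 7 members had an unadjusted p under 0.05, as did 1559 of the 15002 genes tested. DESeq2 called 4 members, and its share over all genes is not given here. Both Cu libraries were above both NT libraries for 7 of the 8 targets, as for 18.3% of all genes. Without replicate 1 of scr Cu 1 member was called. The lines share neither libraries nor controls in these comparisons. In *Baf180* KD cells the count fell to 2 without replicate 2 of NT. In *Brd9* KD cells it fell to 0 without either Cu replicate or without replicate 2 of NT, and to 1 without replicate 1 of NT. In *Baf250a* KD cells it stayed at 7 in each fit without 1 library. Fold changes of all genes went with GC content to a different degree in each line, and the Spearman correlation across genes (n = 14419 to 14927) was -0.46 in scr, 0.50 in *Baf180* KD, 0.13 in *Baf250a* KD and 0.40 in *Brd9* KD cells. With an offset for GC content and length, the counts of members called with Cu were 0, 7, 7 and 7 in this order of lines, and 8 for the mean response. Of all genes 0.04%, 4.27%, 0.32% and 0.648% were called with the offset in this order of lines, and 8.5% for the mean response. In *Baf180* KD *Osgin1* left the calls and *Slc7a11* entered them, and in *Brd9* KD *Nqo1* entered.

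**Figure D3:**
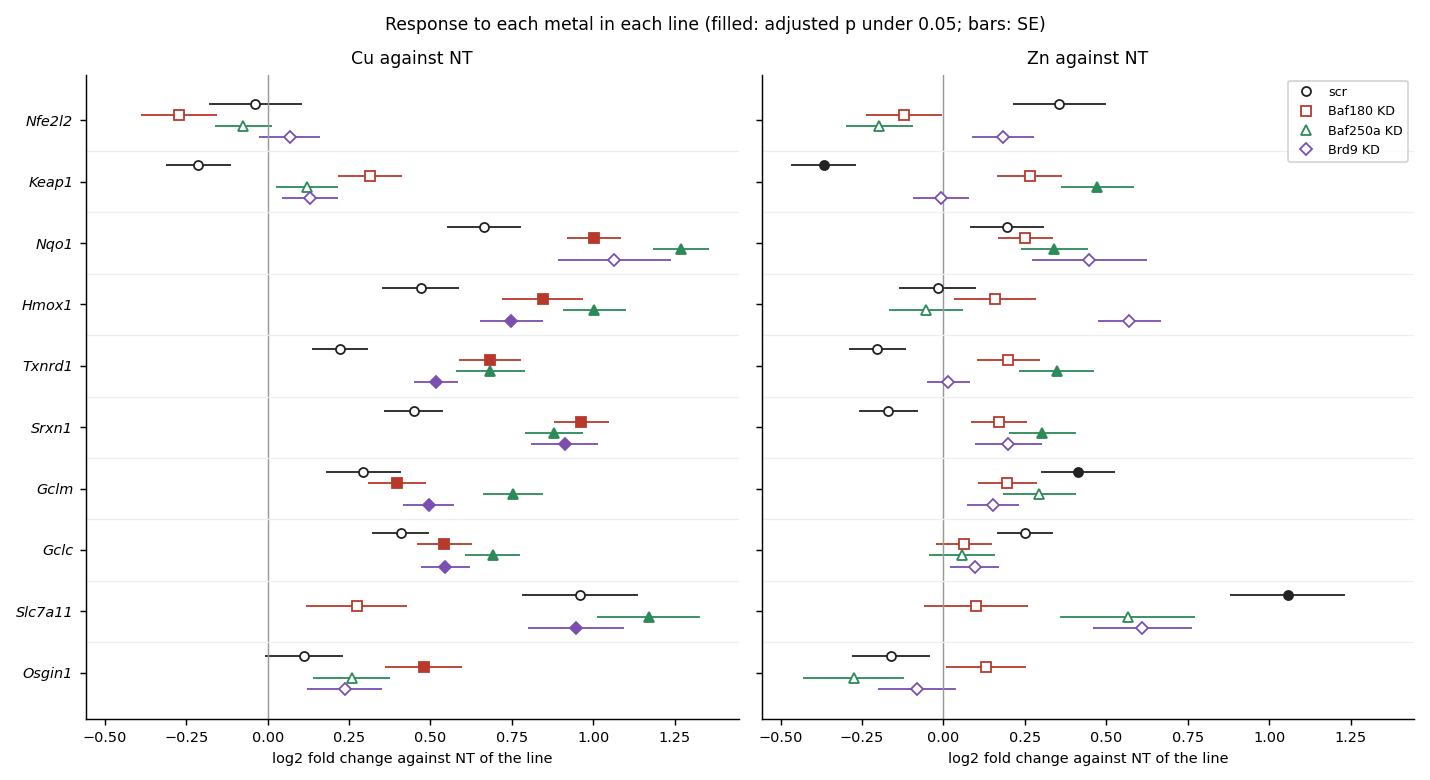
Log2 fold change against NT of the same line (x axis) with Cu and with Zn for each gene (y axis) in the 4 lines (colour and symbol), with SE as bars and filled symbols for an adjusted p under 0.05. With Cu the 8 targets lie to the right of 0 in all 4 lines, from 0.11 to 1.27, and with Zn the values lie on both sides of 0, with the *Slc7a11* value of scr cells (1.06) the farthest from it.

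Zinc moved fewer of these genes. In the mean Zn response *Slc7a11* (0.57 ± 0.097, adjusted p = 0.00999) and *Gclm* (0.25 ± 0.047, adjusted p = 0.0216) were called higher, where 0.0908% of all genes were called higher. The other 6 targets lay between -0.11 (*Osgin1*) and 0.29 (*Nqo1*), and *Nfe2l2* and *Keap1* at 0.041 and 0.075. The 2 calls were reduced to 1 without replicate 1 or 2 of scr Zn, replicate 2 of scr NT, replicate 2 of *Baf180* NT, replicate 1 of *Baf180* Zn, replicate 1 of *Baf250a* NT, replicate 2 of *Brd9* NT or replicate 1 of *Brd9* Zn, and to 0 without replicate 1 of *Baf250a* Zn. Without the shallow library *Slc7a11* was 0.57 and *Gclm* 0.25, both called. With the offset for GC content *Slc7a11* (0.60) was called and *Gclm* (0.28, adjusted p = 0.0529) was not, where 0.678% of all genes were called.

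Directly compared, Cu gave higher levels than Zn for 7 of the 8 targets, where 5.63% of all genes were called higher. The mean difference of log2 levels was 0.73 ± 0.076 for *Nqo1*, 0.71 ± 0.058 for *Srxn1*, 0.63 ± 0.072 for *Hmox1*, 0.48 ± 0.057 for *Txnrd1*, 0.47 ± 0.04 for *Gclc*, 0.39 ± 0.072 for *Osgin1* and 0.26 ± 0.047 for *Gclm*. For *Slc7a11* it was 0.29 ± 0.094 (adjusted p = 0.0633), and 0.40, called, with the offset. The mean responses to Cu and to Zn are set against the same NT libraries. The doses of the salts differ, so that these values compare the treatments and not the metals at a matched dose.

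Within lines the Zn response was not uniform. In scr cells *Slc7a11* rose from 23.5 and 17.6 CPM to 45.1 and 39.2 (1.06 ± 0.18, adjusted p = 0.0275) and *Gclm* from 31.9 and 28.9 to 41.02 and 38.9 (0.41 ± 0.11). *Keap1* fell from 62.5 and 74.1 to 52.9 and 51.7 CPM (-0.37 ± 0.10). These were the 3 members called in scr, where 17.6% of all genes were called, 10.5% higher and 7.13% lower. Fold changes of all genes fell with GC content in this comparison (Spearman correlation -0.68 across 14705 genes). The transcripts of *Gclm* and *Slc7a11* have the lowest GC content of the 10 genes (42.1% and 40.7%), and those of *Keap1* and *Osgin1* the highest (58.0% and 59.3%), against a median of 49.3% over genes tested. With the offset for GC content and length no member was called, where 0.113% of all genes were. The values were 0.27 for *Slc7a11*, -0.12 for *Keap1* and -0.18 for *Gclm*, whose direction turned. The count was also 0 without replicate 2 of NT or without either Zn replicate.

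In *Baf250a* KD cells *Keap1* (0.47 ± 0.11), *Txnrd1* (0.35 ± 0.11), *Nqo1* (0.34 ± 0.10) and *Srxn1* (0.30 ± 0.10) were called higher with Zn, where 8.85% of all genes were called higher. The Zn libraries had 68.7 and 70.98 CPM of *Keap1*, 373 and 264 of *Txnrd1*, 84.1 and 70.98 of *Nqo1* and 140.3 and 122 of *Srxn1*, the second value of each pair coming from the shallow library. There *Nqo1* rested on 36 counts (95% Poisson interval 49.7 to 98.3 CPM) and *Txnrd1* on 134 (221 to 313 CPM), intervals that cover counting error only. Without the shallow library the values were 0.46 for *Keap1*, 0.47 for *Txnrd1*, 0.36 for *Nqo1* and 0.33 for *Srxn1*, all called. With the offset *Txnrd1* (adjusted p = 0.0944) and *Srxn1* (0.17) left the calls, while *Slc7a11* (1.03, adjusted p = 0.0123) and *Gclm* (0.61, 0.00873) entered them. Of all genes 8.66% were called with the offset. The number of members called was 7 without the shallow library, 0 without the other Zn library and 1 without any 1 of the 4 NT and Cu libraries of this line. No member was called in *Baf180* KD or *Brd9* KD cells with Zn, where 0.0197% and 0.0334% of all genes were called. There 2 and 3 members had an unadjusted p under 0.05, as did 1999 of 15241 and 451 of 14978 genes tested. DESeq2 called 0 and 1 members, and its shares over all genes are not given here. In *Baf180* KD cells *Slc7a11* had 19.05 and 20.3 CPM with Zn, overlapping the NT libraries, and in *Brd9* KD cells 25.8 and 31.5, above both. *Hmox1* in *Brd9* KD cells had 88.1 and 71.7 CPM with Zn against 55.4 and 50.3 without (0.57 ± 0.097, adjusted p = 0.346), while its scr libraries had 58.9 and 51.7 with Zn.

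The KD lines differed from scr before any metal was added. *Nqo1*, *Gclm* and *Gclc* were called higher in all 3 KD lines, and *Txnrd1* and *Srxn1* lower in all 3, so that the 8 targets did not share a direction. *Nqo1* was 4.59-fold higher in *Baf180* KD (2.20 ± 0.12), 5.03-fold in *Baf250a* KD (2.33 ± 0.12) and 2.70-fold in *Brd9* KD (1.43 ± 0.15). Each untreated KD library, from 29.5 to 66.2 CPM of *Nqo1*, was above the scr libraries of every treatment, which reached 20.9. This order is a description, and how many of all genes had it is not given here. *Hmox1* was higher in *Baf180* KD (0.63 ± 0.12) and *Baf250a* KD (1.36 ± 0.11), while the value in *Brd9* KD was -0.088 ± 0.11 (adjusted p = 0.559). All 3 comparisons use the same 2 scr libraries and are not independent of each other.

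*Gclc* was higher by 0.54 ± 0.11, 0.75 ± 0.10 and 0.52 ± 0.10 in *Baf180*, *Baf250a* and *Brd9* KD cells and *Gclm* by 0.64 ± 0.12, 0.63 ± 0.11 and 0.68 ± 0.11. With the offset for GC content the untreated *Gclm* values were 0.16, 0.059 and 0.23 and none was called, while those of *Gclc* were 0.45, 0.66 and 0.50 and all were called. *Slc7a11* was lower in *Baf250a* KD (-1.69 ± 0.19), with 5.51 and 7.49 CPM against 23.5 and 17.6 in scr. Its values in *Baf180* KD (-0.17 ± 0.17) and *Brd9* KD (-0.15 ± 0.17) did not pass the test, and became -0.82 and -0.75, both called, with the offset.

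*Txnrd1* was lower, with log2 fold changes of -0.71 ± 0.11 in *Baf180* KD, -1.17 ± 0.10 in *Baf250a* KD and -0.40 ± 0.092 in *Brd9* KD, and *Srxn1* likewise with -0.82 ± 0.11, -0.74 ± 0.11 and -0.44 ± 0.094. No untreated KD library of either gene reached the lower of the untreated scr libraries. The share of all genes with such an order is not given here. *Osgin1* was lower in *Baf180* KD (-0.43 ± 0.13) and *Baf250a* KD (-0.35 ± 0.12). The regulators moved less, with *Nfe2l2* higher in *Baf180* KD (0.37 ± 0.11) and *Baf250a* KD (0.42 ± 0.10) and *Keap1* lower in *Baf250a* KD (-0.49 ± 0.11). The *Nfe2l2* call in *Baf180* KD was lost with the offset (0.26, adjusted p = 0.0663) and without replicate 1 of *Baf180* NT.

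These add up to 8 members called in *Baf180* KD, 10 in *Baf250a* KD and 5 in *Brd9* KD. The shares of all genes called were 41%, 57.8% and 29.2%, so that a call in these comparisons was common. The *Baf180* KD count was 5 without replicate 1 of its NT group, and the *Brd9* KD count was 2 without either of its NT replicates. The summed fibroblast markers, above scr in every KD line, and those of myoblasts and differentiated muscle move with the lines, and their part in these values was not tested.

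**Figure D4:**
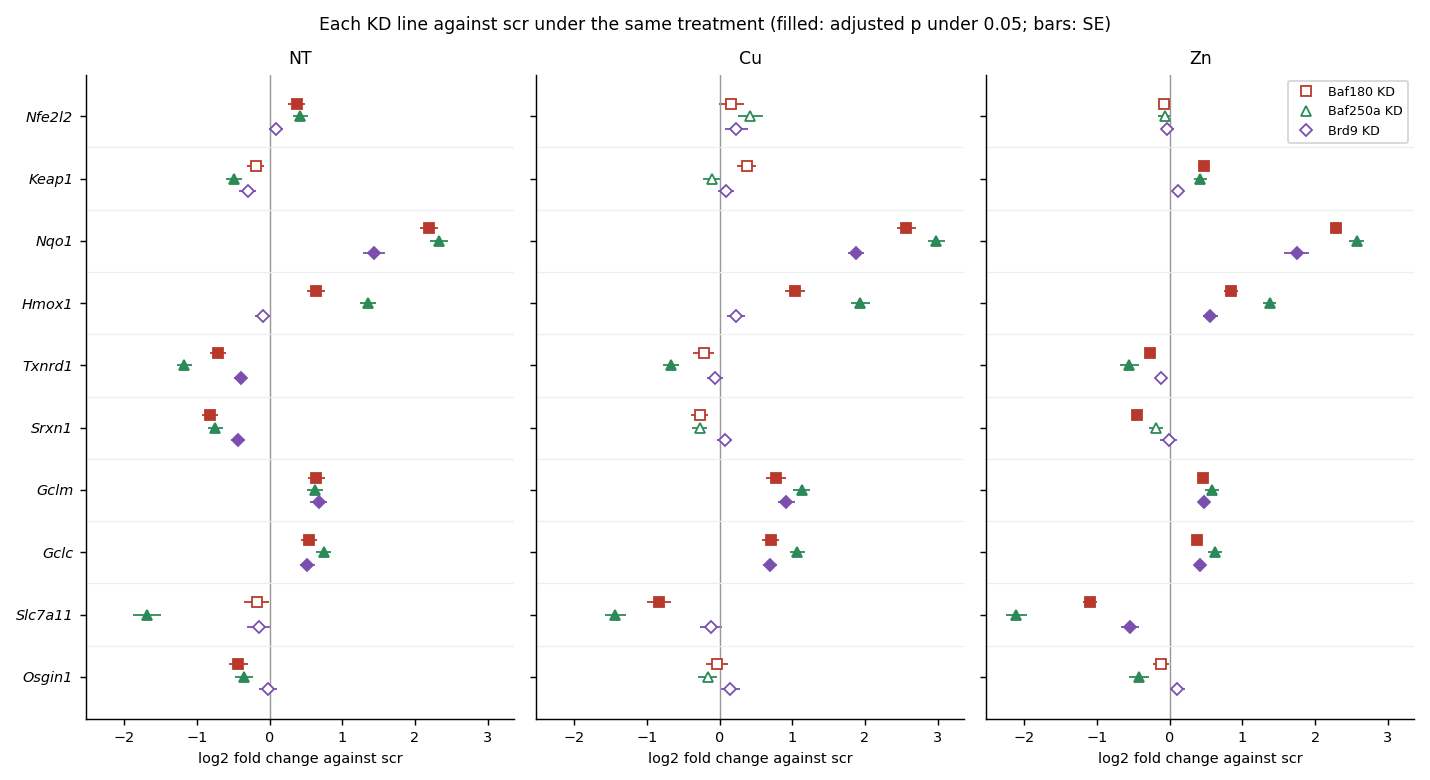
Log2 fold change of each KD line against scr (x axis) for each gene (y axis) in NT, Cu and Zn, with the KD lines by colour and symbol, SE as bars and filled symbols for an adjusted p under 0.05. *Nqo1*, *Gclm* and *Gclc* lie to the right of 0 and are filled in all 9 comparisons, while *Txnrd1* lies to the left in all 9, filled in 6.

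The same comparisons were made in the presence of metal. *Nqo1*, *Gclc* and *Gclm* were called higher in all 9 comparisons of a KD with scr, with *Nqo1* between 1.43 and 2.98 on the log2 scale. *Hmox1* was called higher in 7 of 9. *Txnrd1* and *Slc7a11* were called lower in 6 of 9, *Srxn1* in 4 and *Osgin1* in 3. With the offset for GC content and length *Nqo1* and *Gclc* were still called in all 9 and *Hmox1* in 7, *Gclm* in 6, *Txnrd1* and *Slc7a11* in 8, *Srxn1* in 6 and *Osgin1* in 4. The share of all genes called with the offset ran from 16% (*Brd9* KD in Cu) to 60.8% (untreated *Baf250a* KD).

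In Cu, 5 members were called in *Baf180* KD (24.9% of all genes), 6 in *Baf250a* KD (41.2%) and 3 in *Brd9* KD (12.2%). The log2 fold change of *Nqo1* against scr was 2.57 ± 0.13, 2.98 ± 0.12 and 1.87 ± 0.11 in the *Baf180*, *Baf250a* and *Brd9* KD lines, and that of *Hmox1* was 1.93 ± 0.13 in *Baf250a* KD. *Srxn1*, lower in every untreated KD line, differed from scr in Cu by -0.28 ± 0.12, -0.27 ± 0.10 and 0.067 ± 0.10, none past the test. With the offset its values in *Baf180* KD (-0.53, adjusted p = 0.00636) and *Baf250a* KD (-0.39, 0.00572) were called. The *Brd9* KD count was 5 without replicate 1 of scr Cu.

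In Zn, 8 members were called in *Baf180* KD (49.9% of all genes), 8 in *Baf250a* KD (57.5%) and 5 in *Brd9* KD (23.2%). *Slc7a11* was lower in all 3 lines, with log2 fold changes of -1.10 ± 0.098, -2.11 ± 0.15 and -0.54 ± 0.12. *Keap1* was higher than in scr in *Baf180* KD (0.48 ± 0.064) and *Baf250a* KD (0.42 ± 0.094), values that became 0.10 and 0.075, not called, with the offset for GC content. The *Baf250a* KD count includes the shallow library, without which *Slc7a11* was -2.12 and *Keap1* 0.40. It was 9 without that library, 4 without replicate 1 of *Baf250a* Zn, 3 without replicate 1 of scr Zn and 4 without replicate 2 of scr Zn. The *Brd9* KD count was 8 without replicate 1 of *Brd9* Zn and 3 without replicate 2 of scr Zn.

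Whether a KD line responded differently from scr was tested as the difference of the 2 responses. With Cu, the differences of *Baf180* KD from scr for *Keap1* (0.58 ± 0.14), *Srxn1* (0.57 ± 0.16) and *Txnrd1* (0.51 ± 0.16) were called higher. Of all genes, 5.39% were called higher in this comparison. *Srxn1* and *Txnrd1* had positive responses in both lines. The *Keap1* responses had opposite directions, -0.21 in scr and 0.31 in *Baf180* KD, and neither was called. No member was called for *Baf250a* KD or *Brd9* KD, where 0.0121% and 0.0363% of all genes were called, and DESeq2 called 0 members in both. An unadjusted p under 0.05 was found for 7 and 5 members, and for 1274 and 2759 of the 16524 genes tested. The point estimates for the 8 targets ran from 0.17 to 0.63 in *Baf250a* KD and from 0.057 to 0.54 in *Brd9* KD, with SE of 0.11 to 0.26. With the offset for GC content and length, 0.46% of all genes were called in the *Baf180* KD difference. The *Baf180* KD count was 0 with the offset for GC content, and 0 without replicate 1 of *Baf180* Cu, replicate 2 of *Baf180* NT, replicate 2 of scr Cu or replicate 2 of scr NT.

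With Zn, 4 members were called in *Baf180* KD (28.7% of all genes), 3 in *Baf250a* KD (30.5%) and 2 in *Brd9* KD (11.1%). *Keap1* was among them in each line, by 0.74 ± 0.14, 0.93 ± 0.15 and 0.46 ± 0.14 on the log2 scale. The Zn responses of *Keap1* behind them were -0.37 in scr, 0.26 in *Baf180* KD, 0.47 in *Baf250a* KD and -0.0082 in *Brd9* KD cells. Fold changes of all genes in these 3 differences rose with GC content (Spearman correlations 0.62, 0.55 and 0.59 across 16172 genes). With the offset for it *Keap1* was 0.31, 0.56 and 0.10, with adjusted p of 0.129, 0.0056 and 0.768. The 3 differences share the scr libraries. The *Baf180* KD count was 1 without replicate 2 of *Baf180* NT, replicate 1 of *Baf180* Zn or replicate 2 of scr NT, and 2 without replicate 2 of scr Zn. None of its 4 calls remained with the offset, where 6.99% of all genes were called. There *Gclm* (0.60, adjusted p = 0.0452) was called, against -0.11 and no call without the offset. The *Baf250a* KD count was 1 without replicate 2 of *Baf250a* NT, replicate 1 of *Baf250a* Zn or replicate 2 of scr NT. Without the shallow library its *Keap1* value was 0.92. With the offset *Srxn1* (0.32, adjusted p = 0.124) left its calls, and *Gclm* (0.84, 0.00476) and *Slc7a11* (0.75, 0.0434) entered them in the direction opposite to their values without it, -0.037 and -0.41. Of all genes 18.3% were called there with the offset. The *Brd9* KD count was 0 with the offset, where 0 of 16524 genes were called. It was also 0 without either replicate of *Baf250a* Cu or of scr Zn, replicate 2 of *Baf250a* NT, of *Brd9* NT or of scr NT, or replicate 1 of *Brd9* Zn, and 1 without either replicate of *Baf180* NT, *Baf180* Zn or *Brd9* Cu, or replicate 1 of *Baf250a* NT or of *Brd9* NT.

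Further genes of the pathway were counted from lists chosen with earlier results of these data known. The counts are therefore a description and not an independent test. Of 33 other NRF2 targets 31 were tested, and 22 rose and none fell in the mean Cu response, with a median of 0.37 on the log2 scale, where 4.67% of all genes were called higher, the share against which the counts of the other lists with Cu are also to be read. The largest rises were those of the glutathione transferases *Gsta1* (1.52 ± 0.33), *Gsta2* (1.37 ± 0.20) and *Gsta4* (1.11 ± 0.08), and of *Pgd* (0.69 ± 0.07), an NADPH-producing enzyme of the pentose phosphate pathway. *Gsta1* and *Gsta2* are close copies with few reads and are uncertain. In the mean Zn response 1 of the 31, *Gsta4*, was called higher (0.38 ± 0.081), against 0.0908% of all genes. Of 10 regulators and partners of NRF2, 4 rose with Cu: the small MAF genes *Maff* (0.50 ± 0.085), *Mafk* (0.34 ± 0.045) and *Mafg* (0.21 ± 0.053), and *Sqstm1* (0.38 ± 0.071), whose product p62 binds KEAP1. None of the 10 was called with Zn. Of 12 targets of ATF4, a factor that also drives *Slc7a11*, 3 rose with Cu (*Phgdh* 0.32 ± 0.058, *Psat1* 0.25 ± 0.058 and *Slc3a2* 0.19 ± 0.059) and none was called with Zn.

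Against scr without metal, the other NRF2 targets were called in both directions. In *Baf180* KD 7 were higher and 5 lower, in *Baf250a* KD 10 and 10, and in *Brd9* KD 8 and 4, of 31 tested. Of all genes 21.7% were called higher and 19.3% lower in *Baf180* KD, 28.9% and 28.9% in *Baf250a* KD, and 15.1% and 14.1% in *Brd9* KD, and the counts are to be read against these shares. *Aldh3a1*, an aldehyde dehydrogenase, was higher in all 3 lines (3.15 ± 0.14, 2.65 ± 0.16 and 1.87 ± 0.20), while *Gsta2* was lower in *Baf250a* KD (-3.96 ± 0.39) and *Brd9* KD (-1.11 ± 0.28). *Mgst1*, with a mean of 0.748 CPM in untreated scr cells, was also higher in all 3 lines (2.91 ± 0.32, 2.25 ± 0.32 and 2.74 ± 0.30). The ATF4 targets were mostly lower, with 9, 11 and 7 of 12 called lower and 1 higher in each of the *Baf180*, *Baf250a* and *Brd9* KD lines, against the shares of all genes called lower just given. The log2 fold change of *Atf3* was -3.75 ± 0.13 and that of *Trib3* -2.37 ± 0.13 in *Baf250a* KD. *Slc7a11* was also lowest in this line, and a link between these values was not tested. The gene called higher was *Vldlr*, which averaged 0.301 CPM in scr cells. *Cul3*, the scaffold of the ligase that marks NRF2, was called higher in the 3 KD lines (0.55 ± 0.13, 0.85 ± 0.13 and 0.73 ± 0.14), and its *Baf180* KD value was -0.083 with the offset for GC content. *Sqstm1*, which rose with Cu, was called lower in the 3 untreated KD lines (-0.37 ± 0.12, -0.70 ± 0.11 and -0.37 ± 0.10).

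Likeness of pattern was measured as Pearson's r over the 24 libraries, on log2 CPM after subtraction of the mean of each line, with the mean over the 8 targets. The libraries of a condition and the scaling to CPM are shared by all genes, so that r is a description. Each target was compared with the mean of the other 7: *Nqo1* had 0.98, *Gclc* 0.96, *Srxn1* 0.93, *Hmox1* 0.91, *Gclm* 0.89, *Txnrd1* 0.87, *Slc7a11* 0.67 and *Osgin1* 0.64. *Keap1* had 0.25 and *Nfe2l2* -0.066. Of 12887 other genes with a mean of at least 1 CPM, the highest were the transporter gene *Abcc4* (0.95), the esterase gene *Esd* (0.95), *Gsta4* (0.94), the heme transporter gene *Slc48a1* (0.94) and the transporter gene *Abcc1* (0.94). *Esd* was the one of these 5 that was in none of the lists.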

How the data were processed

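RNA was depleted of ribosomal RNA with RNase H and made into strand-specific libraries. The authors aligned reads to mm10 with STAR, kept unique alignments and used featureCounts to count read pairs by strand, and the deposited counts are whole numbers that were not normalized. A further 14 tables of the authors' own comparisons (fold changes and p-values) were not used. Conditions were taken from sample titles, from which a separate treatment tag differs in most libraries. The methods call the 2 replicates biologically independent, while nothing in the labels ties them to separate cultures, so that p-values measure the spread between these libraries, which may be technical; no 2 libraries of a condition were alike within counting noise.

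Counts were tested in R 4.3.3 with edgeR 4.0.16 (quasi-likelihood test, TMM, filterByExpr) at a Benjamini-Hochberg adjusted p under 0.05 over all genes tested. Metal responses used the 6 libraries of a line, KD comparisons the 4 libraries compared, and differences and mean responses all 24. Log2 CPM used a prior count of 2. Alternatives were DESeq2 1.42.0, RLE size factors, a filter of at least 1 count and the replicate number as a block. Another was an offset for GC content and length (linear fit on splines with 5 degrees of freedom, GENCODE M21 on GRCm38). Fits of all 24 libraries and fits leaving out each library were also made. The fits were also run on simulated counts with known changes, the outcome of which is not given here. Not all of the 10 genes are named with a value in every comparison, and from other lists some of the called genes of largest change are named. Members and lists were chosen with earlier results of these data known. Total counts ran from 495778 to 75179394, and the chi-square per degree of freedom between the 2 libraries of a condition was 2.94 to 37.2, where counting error alone gives about 1. *Gclm* overlaps a pseudogene on its strand, so that its counts are less certain.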

Additional observations from a re-analysis of the deposited data

Results flagged for a closer look

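Differences between the metal response of a KD line and that of scr were tested for each of the 10 genes in 6 comparisons. Those past the threshold are listed here on the log2 scale, as the KD response minus the scr response. Of all genes, 5.39% were called higher in the Cu difference of *Baf180* KD. In the Zn differences 28.7%, 30.5% and 11.1% of all genes were called in *Baf180*, *Baf250a* and *Brd9* KD, so that a call there was common. With the offset for GC content and length 0.46% of all genes were called in the Cu difference of *Baf180* KD. In the Zn differences of *Baf180*, *Baf250a* and *Brd9* KD 6.99%, 18.3% and 0% were called with it. The members past the threshold with Cu in *Baf180* KD were *Keap1* (0.58, adjusted p = 0.0146), *Txnrd1* (0.51, 0.0381) and *Srxn1* (0.57, 0.026). With the offset for GC content and length these were 0.28 (adjusted p = 0.237), 0.38 (adjusted p = 0.104) and 0.30 (adjusted p = 0.251), none called. With Zn in *Baf180* KD they were *Keap1* (0.74, 0.00142), *Txnrd1* (0.51, 0.0211), *Srxn1* (0.44, 0.0422) and *Slc7a11* (-0.85, 0.0126). *Slc7a11* rose with Zn in scr by 1.06 and changed by 0.10 in *Baf180* KD, and with the offset the difference was 0.10 (adjusted p = 0.818). *Keap1* was 0.31 (adjusted p = 0.129), *Txnrd1* 0.33 (adjusted p = 0.0854) and *Srxn1* 0.11 (adjusted p = 0.693) with it, so that none of the 4 was called. Leaving out 1 library at a time, *Txnrd1* in the Cu difference of *Baf180* KD ran from 0.38 to 0.63. *Srxn1* in its Zn difference ran from 0.35 to 0.53. Each of these calls was lost in more of such fits than the other calls of its comparison.

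With Zn in *Baf250a* KD *Keap1* (0.93, adjusted p = 0.000318), *Txnrd1* (0.60, 0.0084) and *Srxn1* (0.54, 0.0197) differed from scr, and were 0.92, 0.77 and 0.59 without the shallow library. With the offset *Keap1* was 0.56 (adjusted p = 0.0056), *Txnrd1* 0.56 (adjusted p = 0.00319) and *Srxn1* 0.32 (adjusted p = 0.124), the last not called. With Zn in *Brd9* KD *Keap1* (0.46, 0.0443) and *Hmox1* (0.69, 0.038) differed, and neither was called with the offset, at 0.10 (adjusted p = 0.768) and 0.43 (adjusted p = 0.473). The same scr libraries enter all of these differences.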

How the results depend on the processing

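The mean Cu response kept 8 members called under every alternative and in each fit without 1 library. Over the 10 genes and 26 comparisons, 1561 of 1728 values from other settings stayed on their side of the threshold (46 of them uncalled values that changed sign), 86 lost the call, 71 gained it and 10 turned with a call, and for fits without 1 library these were 2781 (51), 180, 37 and 2 of 3000. Counts of members called that moved by over 1.5 times follow. The shares of all genes called with the offset alone are given above, and those under the other settings are not given here. For Cu in scr (0) they were 5 with a filter of at least 1 count, 4 with DESeq2 and 2 with all 24 libraries in the fit. For Zn in scr (3) they were 0 with the replicate block, with the GC and length offset, and with both. For Zn in *Baf250a* KD (4) they were 2 with RLE size factors, with the filter of at least 1 count, with the replicate block and with block and offset together, 0 with DESeq2 and 1 with all 24 libraries. For Zn in *Brd9* KD (0) they were 3 with the filter of at least 1 count and 1 with DESeq2. For *Baf250a* KD against scr in Zn (8) they were 5 with block and offset together and 4 with DESeq2. For the Cu difference of *Baf180* KD (3) the offset gave 0, with the block or without, and for that of *Brd9* KD (0) the filter of at least 1 count gave 1. For the Zn difference of *Baf180* KD (4) the offset gave 1, with the block or without, and without the block that 1 was *Gclm*, none of the 4. For that of *Brd9* KD (2), RLE size factors, the filter of at least 1 count and the replicate block gave 1 each and the offset 0, with the block or without. For the mean Zn response (2) the replicate block, the offset and both together gave 1. The cause of these changes was not tested.

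The replicate numbers 1 and 2 are shared by all groups, and nothing in the labels ties them to a culture or day. The correlation of deviations of same-numbered libraries between treatments ran from -0.25 to 0.35 in scr, 0.16 to 0.31 in *Baf180* KD, -0.0031 to 0.033 in *Baf250a* KD and -0.12 to 0.28 in *Brd9* KD. The replicate block alone moved 16 of 260 values out of the call and 4 into it.

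Where a call was involved, directions that turned with the offset for GC content and length were *Gclm* with Zn in scr (-0.18, and -0.18 with the block), *Cul3* in untreated *Baf180* KD (-0.083, and -0.087 with the block), and in the Zn differences *Gclm* (0.60 and 0.60 with the block in *Baf180* KD, 0.84 and 0.83 in *Baf250a* KD) and *Slc7a11* (0.10 and 0.11 in *Baf180* KD, 0.75 and 0.89 in *Baf250a* KD). A further 21 uncalled values of the 10 genes changed sign with the offset, and 20 with offset and block. Between the fits without 1 library, *Txnrd1* in the Zn response of *Baf250a* KD ran from -0.019 (without replicate 1 of *Baf250a* Zn) to 0.47 (without the shallow library), and *Osgin1* in *Baf250a* KD against scr in Zn from -0.49 (without the shallow library) to 0.18 (without replicate 1). Where leaving out 1 library left a group with 1 library, that library was assumed to vary like the others.

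Without 1 library the counts ran from 0 to 1 for Cu in scr, 2 to 7 in *Baf180* KD, 7 to 7 in *Baf250a* KD and 0 to 7 in *Brd9* KD. For Zn they ran from 0 to 4 in scr, 0 to 0 in *Baf180* KD, 0 to 7 in *Baf250a* KD and 0 to 0 in *Brd9* KD. Against scr without metal they ran from 5 to 9, 8 to 10 and 2 to 6 in *Baf180*, *Baf250a* and *Brd9* KD, in Cu from 4 to 6, 5 to 8 and 2 to 5, and in Zn from 7 to 9, 3 to 9 and 3 to 8. For the Cu differences they ran from 0 to 4, 0 to 0 and 0 to 0, and for the Zn differences from 1 to 4, 1 to 4 and 0 to 3. The mean Cu response ran from 8 to 8, the mean Zn response from 0 to 3, and the direct comparison of Cu with Zn from 6 to 8. Depth limits the *Baf250a* KD Zn values most, where *Slc7a11* rested on 5 counts in the shallow library.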
